A study of Botryllus schlosseri with 12 samples.

Results

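The contigs described here had a transient peak at 6 h post-injury (hpi) in the vasculature and tunic of *Botryllus schlosseri*: their level was high in the 3 libraries of 6 hpi and low at 0, 18 and 24 hpi. They were selected on these same measurements. The level was the count of a contig divided by the sum of its library and multiplied by 1000000 (CPM), averaged over the 3 libraries of a time point as log2(CPM + 1). A contig was taken when its mean CPM over the 12 libraries lay from 5 to under 500, its mean at 6 hpi exceeded the highest of the other 3 means by at least 1.5 on this log2 scale, and its lowest library at 6 hpi was above each of the 9 other libraries. Of 32561 contigs in the deposited table, 171 (0.525%) met all of these conditions, or 0.659% of the 25956 contigs within the CPM limits.

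*B. schlosseri* is a colonial tunicate whose zooids share a network of blood vessels embedded in a common tunic. The RNA came from subclones of an isogenic strain, grown apart from each other. Their zooids and buds were removed by microsurgery at the last stage of the budding cycle. The paper states that this removal often left small pieces of adult zooid on the tunic, so such residues may be part of the samples. The remaining vessels and tunic, with any such residues, were preserved directly (0 hpi, 3 libraries) or after 6, 18 or 24 h in filtered seawater (3 libraries each). Every library came from a separate subclone. No uninjured colony was included, so that 0 hpi stands for tissue taken just after surgery and all groups share the injury. Extraction was done on 1 day for the 12 samples. The rows of the table carry no gene names, so the labelled tissue could not be checked against marker genes, and in these bulk samples fewer cells of a type and less RNA per cell cannot be told apart.

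When its zooids are lost, *B. schlosseri* can form a whole body anew, a process called whole-body regeneration in which buds appear within the vasculature. In animals in general, wounding is followed within hours by waves of transcripts that appear and disappear again, among them those of regulators and of stress, clotting and immune proteins. A transcript is seen as transient where its synthesis stops and the existing copies are degraded. None of the 171 contigs could be placed in such a class here. Of the 1998 contigs in the copy of the study's annotation used here, 10 were among the 171, and all 10 are listed there without a match in the human proteome. No identifier was shared with the gene table of the reference assembly. The contigs are therefore described by their identifiers, given without the prefix TRINITY_, and no sequence is shown.

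The identifiers do tell how the assembler grouped the contigs. Trinity first gathers reads that overlap into a read cluster (DN18159_c1), then splits a cluster into genes (g3) and each gene into alternative contigs (i1); the last number marks the open reading frame (p1). Contigs of 1 gene or cluster were grouped by the overlap of their reads, so they may not be independent measurements. The 171 reading frames belong to 170 Trinity contigs, 145 Trinity genes and 91 read clusters. In 33 clusters at least 2 of their contigs were selected, and these held 113 of the 171.

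Library totals ranged from 2397316 to 2693477 estimated counts at 6 hpi and from 2076597 to 3992991 over all time points. The median over the selected contigs and the libraries of a time point was 193 counts at 6 hpi, and between 45.0 and 52.1 counts at the other time points. A library without any count occurred in 12 of the 171 contigs at 0 hpi, in 11 at 18 hpi and in 10 at 24 hpi. The single most abundant contig of a library took between 5.32% and 6.25% of the counts at 18 hpi. At the other time points it took between 1.21% and 4.27%. Factors of edgeR's TMM method, which rescale the library totals, lay between 0.941 and 1.105. At 18 hpi they were 1.056, 1.068 and 1.105, so that this scaling lowered the levels of that time point. In addition, 5 of the 171 contigs had counts in the same 6 libraries and almost none in the other 6, and replicate 1 of 24 hpi was often the lowest of its time point; both are described below with the counts that result without them.

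Summed over the 171 contigs, the share of all counts in a library was 0.617%, 0.495% and 0.507% at 0 hpi, 2.74%, 2.73% and 2.70% at 6 hpi, 0.351%, 0.410% and 0.443% at 18 hpi, and 0.415%, 0.528% and 0.455% at 24 hpi. The mean share was 0.539 ± 0.0671% at 0 hpi, 2.72 ± 0.0195% at 6 hpi, 0.402 ± 0.0465% at 18 hpi, then 0.466 ± 0.0576% at 24 hpi (SD, n = 3 each). The 3 libraries of 6 hpi lay closely together and far above the other 9, as the selection requires of each contig.

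**Figure D1:**
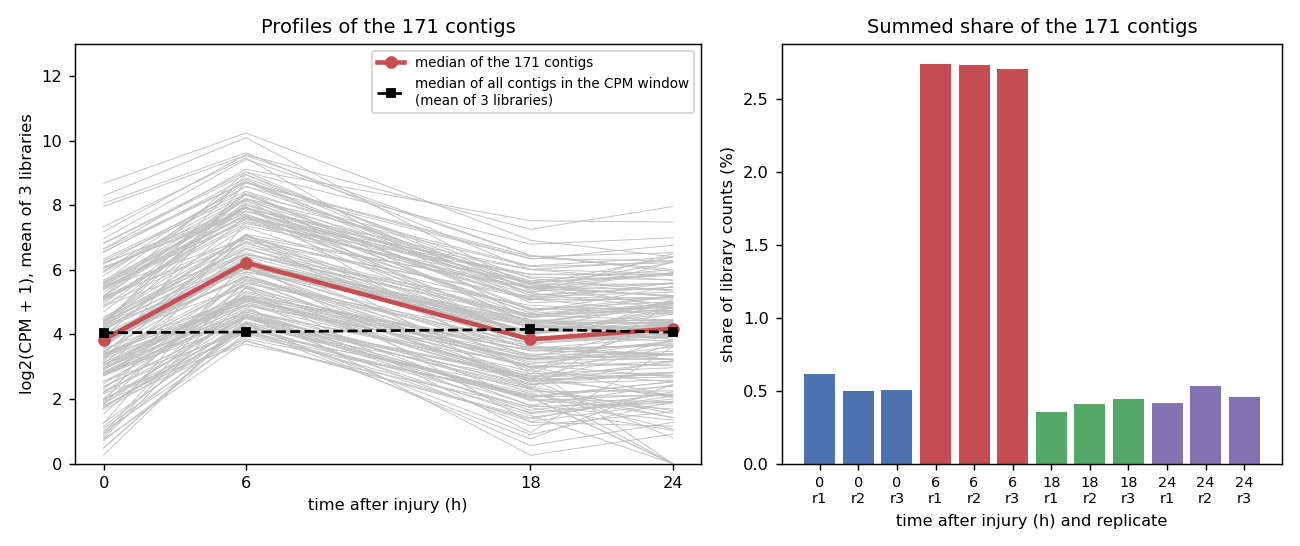
Left, mean log2(CPM + 1) over the 3 libraries of each time point against time after injury in hours, with a grey line for each of the 171 contigs, their median in red and the median of all contigs within the CPM limits as a black dashed line. Right, the share of the counts of each library that fell on the 171 contigs, in percent, with bars for the 12 libraries in order of time point and replicate; the bars of 6 hpi stand at 2.70% to 2.74% and all others at 0.351% to 0.617%.

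The median over the 171 contigs of the mean CPM was 13.8 CPM at 0 hpi, 74.2 CPM at 6 hpi, 14.2 CPM at 18 hpi and 17.9 CPM at 24 hpi, and the 6 hpi level ranged from 12.1 to 1212 CPM. Relative to its own level at 6 hpi, the median contig stood at 19.6% before the peak (0 hpi), and after it at 17.1% (18 hpi) and 21.3% (24 hpi). The peaks thus include rare and abundant contigs. The rule itself holds the levels outside the peak low: no contig exceeded 35.4% of its peak level before it, 36.4% at 18 hpi or 40.8% at 24 hpi. The similarity of these medians is therefore largely imposed, and each median may rest on a different contig. They do not show a return to the starting level, and single contigs are compared with 0 hpi further below. How long a peak lasted between 0 and 18 hpi is not resolved, since no library was taken in that interval other than at 6 hpi.

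The excess of the 6 hpi mean over the next highest mean had a median of 1.97 on the log2 scale, with quartiles of 1.65 and 2.21 and a maximum of 3.49. It reached 2 for 78 contigs, 2.5 for 17 and 3 for 9. The next highest mean was that of 0 hpi for 64 contigs, of 18 hpi for 36 and of 24 hpi for 71. The gap between the lowest library of 6 hpi and the highest other library had a median of 1.24 and was at least 1 for 119 contigs, but its minimum was 0.0227, so a few contigs are separated only barely.

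At the limit of the rule, DN17021_c0_g4_i1.p1 was included with an excess of 1.507 and DN17015_c2_g2_i1.p1 with 1.508, whereas DN17375_c4_g10_i1.p1 and DN13243_c2_g1_i3.p1 were left out with 1.498 each. DN17021_c0_g4_i1.p1 had 96.0, 84.3 and 84.3 CPM at 6 hpi and 26.8, 29.4 and 35.4 CPM at 24 hpi, its next highest time point. DN13243_c2_g1_i3.p1 had 151, 163 and 153 CPM at 6 hpi and 40.0, 71.0 and 56.4 CPM at 24 hpi. The contigs on either side of the limit thus look alike, and the number 171 depends on where the limit is set. Within the CPM limits 30 further contigs reached the difference of 1.5 with a library of 6 hpi that overlapped another time point.

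By edgeR's quasi-likelihood test, 156 of the 171 contigs were called higher at 6 than at 0 hpi, beside 4.63% of all 31383 tested contigs. Against 18 hpi 160 were called higher at 6 hpi (4.76% of all tested), and against 24 hpi 152 (4.13% of all tested). A contig counted as called where its adjusted p (Benjamini-Hochberg) was below 0.05 and its log2 fold change exceeded 1 in size. These comparisons were used by the selection, so the counts describe the contigs and test nothing about them.

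The largest excess belonged to DN14724_c4_g3_i1.p2, at 19.2, 16.9 and 23.4 CPM at 0 hpi, 329, 345 and 361 CPM at 6 hpi, 22.2, 16.5 and 19.3 CPM at 18 hpi and 12.2, 34.8 and 60.4 CPM at 24 hpi. Its level at 6 hpi varied little between subclones, while the 3 libraries of 24 hpi were spread over a wide range that enclosed all libraries of 0 and 18 hpi. The other reading frame taken from the same contig, DN14724_c4_g3_i1.p1, named after its values were seen, had 352, 320 and 307 CPM at 6 hpi and its libraries of 24 hpi were apart in the same way. Another contig of this Trinity gene, DN14724_c4_g3_i4.p1, came second in excess with 3.39 and had 19.2, 22.0 and 14.5 CPM at 0 hpi, 385, 476 and 661 CPM at 6 hpi, 38.9, 47.1 and 53.7 CPM at 18 hpi and 20.4, 68.3 and 70.3 CPM at 24 hpi. All 3 of these reading frames were lowest in replicate 1 among the libraries of 24 hpi.

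That pattern was common. Replicate 1 was the lowest library of 24 hpi for 89 of the 171 contigs, replicate 2 for 38 and replicate 3 for 44, whereas over all contigs within the CPM limits replicate 1 was lowest in 28.6%, replicate 2 in 40.0% and replicate 3 in 31.4%. At 6 hpi, replicates 1, 2 and 3 were lowest for 56, 42 and 73 contigs, beside 31.1%, 32.7% and 36.2% of all contigs within the CPM limits. At 18 hpi replicate 1 was lowest for 83 contigs, beside 37.5%, and at 0 hpi replicate 2 for 72, beside 37.3%. Replicate 1 was thus lowest in a larger share of the 171 than of all contigs at both 18 and 24 hpi, and values without these libraries are given below.

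The highest levels at 6 hpi were those of the Trinity gene DN18157_c0_g2, which had 3 selected contigs. DN18157_c0_g2_i2.p1 had 513, 415 and 322 CPM at 0 hpi, 1229, 1285 and 1122 CPM at 6 hpi, 111, 106 and 147 CPM at 18 hpi and 70.8, 109 and 76.6 CPM at 24 hpi. It was thus already abundant just after surgery, was higher still at 6 hpi, and lay below its starting level in every library of 18 and 24 hpi. DN18157_c0_g2_i8.p2 had 436, 310 and 227 CPM at 0 hpi, 1089, 1076 and 1116 CPM at 6 hpi, 34.3, 43.1 and 51.8 CPM at 18 hpi and 26.1, 52.4 and 32.7 CPM at 24 hpi, and DN18157_c0_g2_i3.p1 followed the same course at 770, 823 and 781 CPM at 6 hpi. All estimates of these contigs are fractional, so that kallisto divided reads between each of them and at least 1 other contig. The table does not give which.

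DN18159_c1_g3 contributed 6 contigs, more than any other Trinity gene, and their levels at 6 hpi differed widely. The most abundant, DN18159_c1_g3_i1.p1, had 125, 86.1 and 133 CPM at 0 hpi, 496, 545 and 533 CPM at 6 hpi, 80.0, 122 and 137 CPM at 18 hpi and 159, 142 and 90.1 CPM at 24 hpi. The contigs i6.p1, i3.p1 and i8.p1 averaged 167, 137 and 85.5 CPM at 6 hpi, and i4.p1 and i5.p2 averaged 36.6 and 33.4 CPM. DN18159_c1_g3_i5.p2 varied most between the subclones of 6 hpi, with 48.1, 18.5 and 33.6 CPM. These levels are not divided by contig length, which the table does not give, and compare contigs only in counts.

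**Figure D2:**
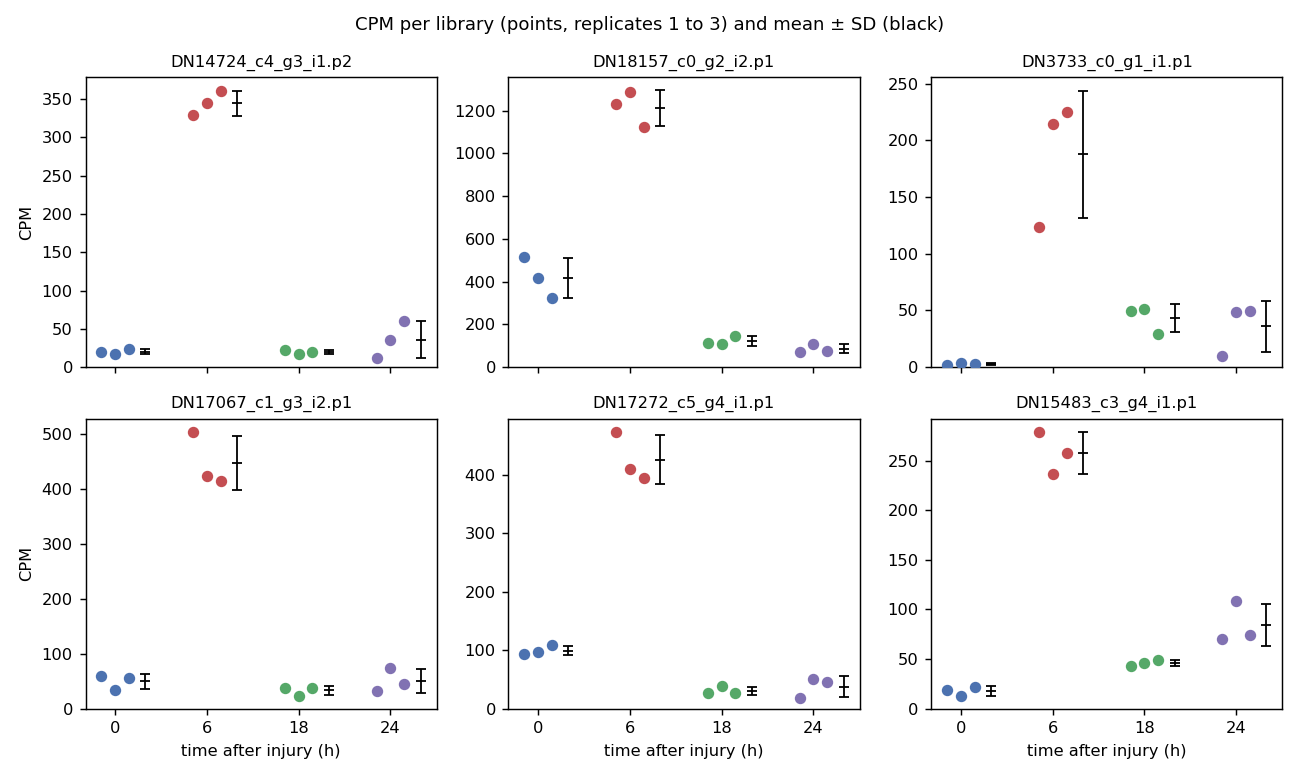
CPM of 6 selected contigs in each library against time after injury in hours, with a point for each of replicates 1 to 3 and the mean ± SD in black; each panel has its own linear axis from 0. The points of 6 hpi stand above all others in every panel, DN18157_c0_g2_i2.p1 and DN17272_c5_g4_i1.p1 lie lower at 18 and 24 hpi than at 0 hpi, and DN15483_c3_g4_i1.p1 lies higher at 18 and 24 hpi than at 0 hpi.

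Where several contigs of a read cluster were selected, their sum depends less on how reads were divided among them. Reads shared with contigs that were not selected are still left out. The rule holds for each contig summed, so it also fixes that the sum peaks at 6 hpi. DN18159_c1 held 11 selected contigs of 4 Trinity genes, and their summed level was 477, 319 and 500 CPM at 0 hpi, 2006, 2122 and 2110 CPM at 6 hpi, 320, 444 and 491 CPM at 18 hpi and 532, 542 and 373 CPM at 24 hpi. All 11 contigs of this cluster within the CPM limits were highest at 6 hpi and all 11 were selected. The 7 contigs of DN18157_c0 summed to 1898, 1337 and 1114 CPM at 0 hpi, 4633, 4711 and 4506 CPM at 6 hpi, 302, 311 and 414 CPM at 18 hpi and 217, 328 and 235 CPM at 24 hpi. This cluster alone accounted for a larger part of the counts at 6 hpi than any other cluster with at least 4 selected contigs.

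DN17067_c1 stood out by the size of its excess. Its 6 contigs, of 4 Trinity genes, summed to 306, 207 and 270 CPM at 0 hpi, 2250, 2102 and 1950 CPM at 6 hpi, 158, 154 and 168 CPM at 18 hpi and 167, 339 and 224 CPM at 24 hpi. The median excess of these 6 contigs was 3.14, against 1.97 for all 171. Of the 6, 2 were called lower at 18 than at 0 hpi and none at 24 hpi, and the sums of 18 hpi lay below those of 0 hpi without overlap. DN17067_c1_g3_i2.p1, 1 of the 4 not called, chosen as an example after its values were seen, had 59.7, 33.6 and 56.0 CPM at 0 hpi, 503, 424 and 415 CPM at 6 hpi, 38.5, 23.8 and 37.9 CPM at 18 hpi and 31.8, 74.6 and 44.4 CPM at 24 hpi. Its 0, 18 and 24 hpi libraries overlap, and neither 18 nor 24 hpi was called against 0 hpi (adjusted p = 0.151 and 0.970, edgeR's quasi-likelihood test).

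In 9 of the 11 clusters with at least 4 selected contigs, every contig within the CPM limits had its highest mean at 6 hpi. The exceptions were DN18157_c0, with 8 of 9, and DN17803_c0, with 8 of 10. The rule fixes this for the selected contigs. In DN18159_c1, DN17067_c1, DN17272_c5, DN18241_c2 and DN13727_c0 these were all of the contigs within the CPM limits. Selected were 7 of 9 in DN18157_c0, 7 of 10 in DN17803_c0, 6 of 8 in DN18587_c0 and 4 of 6 in DN18166_c1. In DN17928_c2 and in DN14636_c8 4 of 5 were selected. The smallest of the 11 by summed level was DN14636_c8, with 74.9, 127 and 137 CPM at 6 hpi and 17.6, 33.1 and 32.9 CPM at 0 hpi. In DN18166_c1 the 3 libraries of 0 hpi were wide apart, at 66.3, 137 and 21.9 CPM, while those of 6 hpi were at 285, 341 and 360 CPM.

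**Figure D3:**
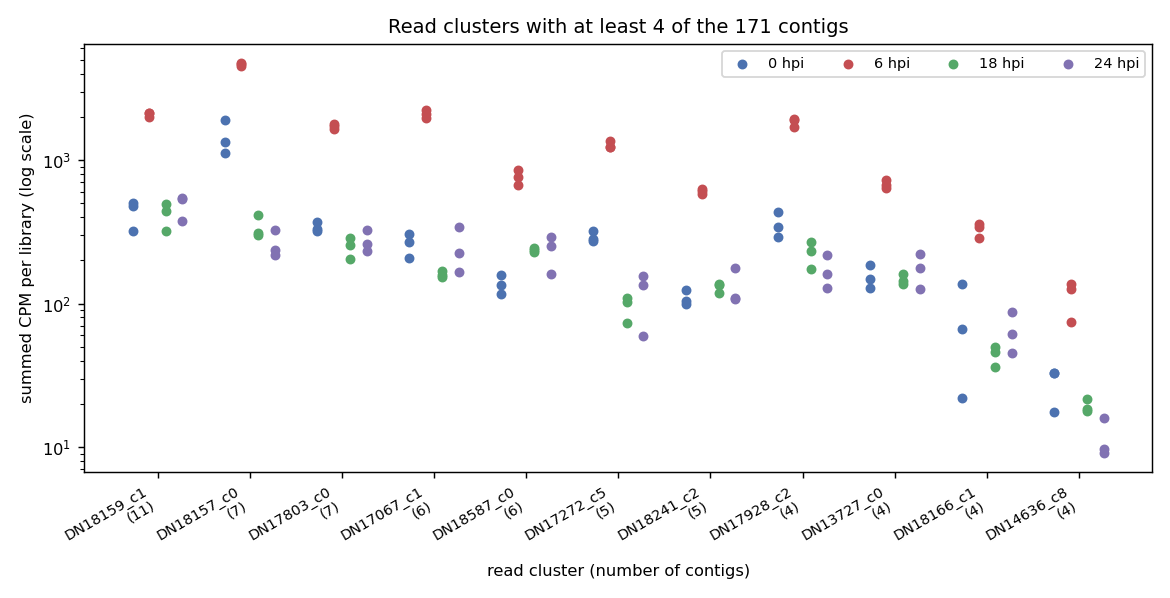
Summed CPM of the selected contigs in each of the 11 read clusters that held at least 4 of them, on a logarithmic axis, with a point for each of the 12 libraries and a colour for each time point; the number of contigs is given under each cluster. In every cluster the 3 points of 6 hpi lie above the other 9, as the selection of each contig requires. They range from 74.9 to 137 CPM in DN14636_c8 up to 4506 to 4711 CPM in DN18157_c0.

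The contigs that share a Trinity gene with a selected contig but were not selected themselves give a view that the thresholds did not fix directly, although they may share reads with the selected contigs. There were 92 of them, 61 within the CPM limits. Of these 61, 44 (72.1%) had their highest mean at 6 hpi, beside 22.3% of all contigs within the CPM limits, and their median excess of the 6 hpi mean over the next highest was 0.629, beside -0.311. In 25 of the 61 the libraries of 6 hpi were above all others with an excess under 1.5, beside 4.06% of all contigs within the CPM limits. The other Trinity genes of the same read clusters had 103 contigs within the CPM limits, of which 62 (60.2%) were highest at 6 hpi with a median excess of 0.295. These are counts without a test, as contigs grouped by their reads may not be independent.

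Reads divided between similar contigs are seen as estimates that are not whole: 81 of the 171 contigs (47.4%) had an estimate that is not a whole number in at least 1 library, taken exactly as deposited, beside 29.3% of all contigs within the CPM limits. For these a single contig's level depends on how the reads were assigned. The other 90 had whole estimates only, and 90 contigs were also the only contig of their Trinity gene in the table. With the counts summed per Trinity gene, 119 genes met the rule, of which 116 held a selected contig.

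Between subclones of 6 hpi the selected contigs varied by a median coefficient of variation of 12.8%, beside 19.5% for all contigs within the CPM limits. The rule itself bears on this value, since it requires the lowest library of 6 hpi to exceed all others. The widest was DN12658_c3_g1_i5.p1, named after its values were seen, with a coefficient of 80.7% and 30.2, 99.1 and 24.7 CPM at 6 hpi; another contig of its Trinity gene, DN12658_c3_g1_i2.p1, also named after its values were seen, had 218, 250 and 247 CPM there. Replicate 1 was the highest library of 6 hpi for 79 of the 171 contigs, replicate 2 for 43 and replicate 3 for 49.

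A group of 5 of the 171 contigs followed the libraries and not only the time points, and was noticed after the values were seen. DN12576_c0_g2_i1.p1 had estimated counts of 21, 0 and 0 at 0 hpi, 39, 40 and 31 at 6 hpi, 0, 19 and 32 at 18 hpi, and 0 in all 3 libraries of 24 hpi. DN9834_c0_g3_i1.p1 had 29, 0 and 0 counts at 0 hpi, 66, 54 and 49 at 6 hpi, 0, 31 and 40 at 18 hpi and again 0 at 24 hpi. The same libraries were empty for DN10512_c0_g2_i1.p1 and DN11648_c0_g3_i1.p1, and for DN10512_c0_g5_i1.p1 apart from 1 count in replicate 1 of 18 hpi. In all 5, therefore, replicate 1 of 0 hpi, all of 6 hpi and replicates 2 and 3 of 18 hpi had counts and the other 6 libraries had at most 1.

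**Figure D4:**
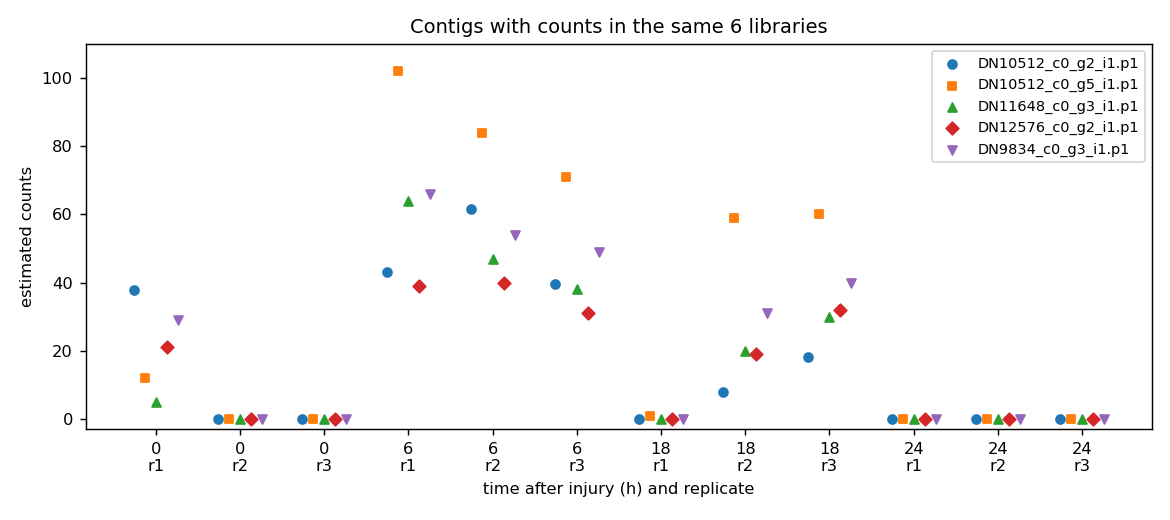
Estimated counts of the 5 contigs in each of the 12 libraries, in order of time after injury in hours and replicate, with a symbol for each contig. Replicate 1 of 0 hpi, the 3 libraries of 6 hpi and replicates 2 and 3 of 18 hpi hold 5 to 102 counts of each contig, and the remaining 6 libraries hold 0 or 1.

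Over the whole table, 46 contigs of 24 read clusters had at least 3 counts in each of these 6 libraries and at most 1 in each of the others, and no contig had the opposite pattern. Together these 46 contigs had 2964, 2 and 0 counts at 0 hpi, 3599, 3081 and 2597 at 6 hpi, 4, 2601 and 3185 at 18 hpi and 0, 0 and 0 at 24 hpi. In the libraries that had them, their summed level was 1005 CPM at 0 hpi, 1458, 1285 and 964 CPM at 6 hpi, and 687 and 1096 CPM at 18 hpi. Replicates of 1 time point thus fell on both sides. The libraries share a strain but each is a separate subclone, so a difference between subclones and a difference between time points cannot be told apart for these 5 contigs, and no cause was tested. None of the 5 was called in any comparison among 0, 18 and 24 hpi, and without them 166 contigs remain and all counts of calls among these time points stay as given below.

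Whether the contigs were back at their 0 hpi level after the peak is a question the selection left largely open, since it bounds the levels of 0, 18 and 24 hpi only from above and treats the 3 time points alike. At 18 against 0 hpi, 9 of the 171 contigs (5.26%) were called higher, beside 2.93% of all tested contigs, and 26 (15.2%) were called lower, beside 7.08%. At 24 against 0 hpi, 18 contigs (10.5%) were called higher, beside 3.54%, and 23 contigs (13.5%) were called lower, beside 6.54%. The 171 contigs thus held a larger share of calls in both directions than the table as a whole, while most were not called. These shares are not independent of the selection. The test estimates the spread between libraries over all time points together, and the rule bears on that spread. At the peak the median coefficient of variation was 12.8% for the 171 contigs and 19.5% for all contigs within the CPM limits. How far the rule thereby changed the shares of calls, here and at 24 against 18 hpi below, was not tested. At neither time point were 121 contigs (70.8%) called, beside 87.4% of all tested contigs. Both comparisons share the libraries of 0 hpi.

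The log2 fold changes were centred near 0. At 18 against 0 hpi the median was -0.19 (0.01 over all tested contigs), with a range of -4.99 to 3.74, and 114 of 171 (66.7%) lay within 1 of no change, beside 84.7% of all tested contigs. At 24 against 0 hpi the median was 0.05 (0.01 over all tested), and 108 (63.2%) lay within 1 of no change, beside 84.5%. Without the 5 contigs that had no counts at 24 hpi the range was -4.51 to 4.22, and the median stayed at 0.05 with these 5 set at the limit that 3 counts over the group allow. Scaled by library size alone, the median of all tested contigs moved to 0.17 at 18 against 0 hpi and that of the 171 to -0.02, so the selected contigs lay below the table as a whole under either scaling. Leaving out 1 library moved the median at 18 against 0 hpi to -0.10 without replicate 1 of 18 hpi and to -0.12 without replicate 1 of 0 hpi, and limma-voom gave -0.09. At 24 against 0 hpi it was between 0.03 without replicate 2 of 24 hpi, where all tested contigs had 0.04, and 0.15 without replicate 1 of 0 hpi, so that its side of the table's median depends on the library left out. A contig that is not called is not thereby shown to be back at its 0 hpi level.

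**Figure D5:**
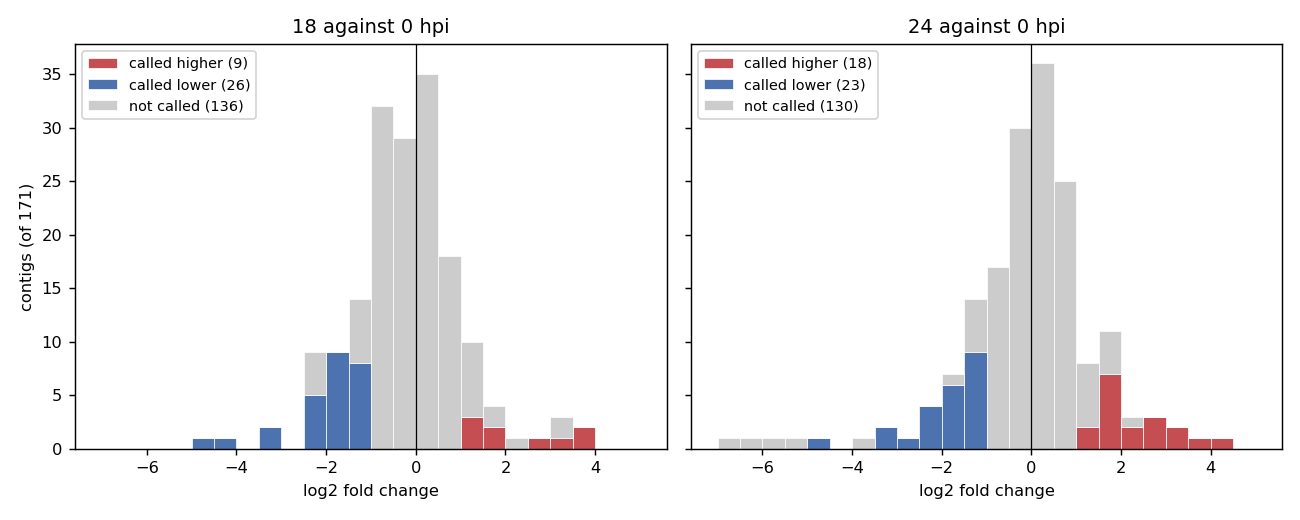
Number of the 171 contigs by log2 fold change at 18 against 0 hpi (left) and 24 against 0 hpi (right), in bins of 0.5, with contigs called higher in red, called lower in blue and not called in grey. Red and blue hold 9 and 26 contigs in the left panel and 18 and 23 contigs in the right panel. The fold changes of the 5 contigs without counts at 24 hpi lie from -6.73 to -3.79 in the right panel and depend on the prior count of the fit.

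The contigs called lower at 18 or 24 than at 0 hpi, 32 in all, belonged to 16 read clusters. The shares called lower among all tested contigs are given above for each time point. In DN18157_c0, 6 of 7 selected contigs were called lower at 18 than at 0 hpi and 5 of 7 at 24 than at 0 hpi. DN18157_c0_g2_i2.p1, described above, had a log2 fold change of -1.95 ± 0.238 (SE) at 18 against 0 hpi (adjusted p = 2.08e-05) and -2.34 ± 0.242 at 24 against 0 hpi (adjusted p = 3.63e-06, edgeR's quasi-likelihood test), with every library of 18 and 24 hpi below every library of 0 hpi. For DN18157_c0_g2_i8.p2 the values were -3.09 ± 0.300 at 18 hpi (adjusted p = 2.83e-06) and -3.19 ± 0.304 at 24 hpi (adjusted p = 2.14e-06, the same test). The estimates of both contigs are fractional, so they are not independent of all others.

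DN17272_c5 was another cluster of this kind: all 5 of its selected contigs, of 4 Trinity genes, were called lower at 18 and lower at 24 than at 0 hpi. Their sum was 280, 272 and 320 CPM at 0 hpi, 1356, 1224 and 1228 CPM at 6 hpi, 72.7, 110 and 103 CPM at 18 hpi and 59.1, 156 and 134 CPM at 24 hpi, so that the libraries of 18 and 24 hpi did not overlap those of 0 hpi. In DN17272_c5_g4_i1.p1, named after its values were seen and with whole estimates only, the log2 fold change was -1.83 ± 0.323 at 18 against 0 hpi (adjusted p = 0.00126) and -1.43 ± 0.319 at 24 against 0 hpi (adjusted p = 0.00717, edgeR's quasi-likelihood test). In DN17928_c2, 3 of 4 contigs were called lower at 24 and none at 18 than at 0 hpi, and the sums were 128, 219 and 161 CPM at 24 hpi, against 432, 291 and 343 CPM at 0 hpi.

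The contigs with the deepest fall were less abundant. DN13562_c11_g4_i1.p1 had 27.5, 53.1 and 2.60 CPM at 0 hpi, 60.8, 73.4 and 101 CPM at 6 hpi, 3.56, 2.11 and 0 CPM at 18 hpi and 0.263, 2.89 and 1.28 CPM at 24 hpi. The groups overlap, because replicate 3 of 0 hpi lay among the later libraries, and the calls were close to the limit (edgeR's quasi-likelihood test, adjusted p = 0.0463 at 18 and 0.0402 at 24 against 0 hpi). They were lost without any 1 of 11 of the 12 libraries at 18 hpi and of 10 of the 12 at 24 hpi, where the adjusted p ranged up to 0.14 and 0.129, and also with the replicate block (adjusted p = 0.0889 and 0.0839), while the log2 fold change stayed at -3.09 or lower in each of these fits. DN2086_c0_g1_i1.p1 had 11, 15 and 49 counts at 0 hpi, 61, 64 and 95 at 6 hpi, 1, 1 and 0 at 18 hpi and 0, 4 and 5 at 24 hpi. With 2 counts at 18 hpi against 75 at 0 hpi, the ratio of its CPM was 0.0292 (95% exact interval for counting error 0.00347 to 0.109), and it was called lower at 18 hpi (adjusted p = 0.00247) and at 24 hpi (adjusted p = 0.0168, edgeR's quasi-likelihood test). Without replicate 3 of 0 hpi, its highest library there, the call at 24 hpi was lost (log2 fold change -1.99, adjusted p = 0.0645).

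The contigs called higher at 18 or 24 than at 0 hpi, 18 in all, belonged to 14 read clusters. For these too, the shares among all tested contigs are given above for each time point. DN3733_c0_g1_i1.p1 had 2.03, 4.01 and 2.31 CPM at 0 hpi, 124, 215 and 225 CPM at 6 hpi, 49.5, 51.0 and 28.9 CPM at 18 hpi and 9.98, 48.6 and 49.3 CPM at 24 hpi. All later libraries were above those of 0 hpi, with replicate 1 of 24 hpi the closest, and the log2 fold change was 3.74 ± 0.714 at 18 against 0 hpi (adjusted p = 0.0063) and 3.60 ± 0.720 at 24 against 0 hpi (adjusted p = 0.00831, edgeR's quasi-likelihood test). DN11020_c0_g2_i1.p1 had 1, 0 and 1 counts at 0 hpi, 53, 52 and 62 at 6 hpi, 11, 5 and 5 at 18 hpi and 18, 2 and 27 at 24 hpi. The ratio of its CPM was 11.5 at 18 against 0 hpi (95% exact interval for counting error 2.81 to 101) and 25.0 at 24 against 0 hpi (6.55 to 213), with adjusted p of 0.0229 and 0.00132 by the same test. The call at 18 hpi was lost when replicate 1 of 18 hpi was left out (adjusted p = 0.101), and likewise for replicates 2 and 3 of 0 hpi (adjusted p = 0.0995 and 0.0509). The log2 fold change was 2.59, 2.56 and 3.49 in these fits, against 3.15 with all libraries.

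The read cluster DN15483_c3, singled out after its values were seen, showed a remainder of this kind in 3 Trinity genes with whole estimates. DN15483_c3_g4_i1.p1 had 19.0, 12.8 and 22.2 CPM at 0 hpi, 279, 237 and 258 CPM at 6 hpi, 43.1, 46.0 and 48.9 CPM at 18 hpi and 70.4, 109 and 74.7 CPM at 24 hpi. No time point overlapped another, and the level at 24 hpi was above that of 18 hpi in every library. This contig was not called at 24 against 18 hpi, however (log2 fold change 0.995 ± 0.218, adjusted p = 0.2035, edgeR's quasi-likelihood test). Its log2 fold change was 1.20 ± 0.231 at 18 against 0 hpi (adjusted p = 0.00165) and 2.19 ± 0.232 at 24 against 0 hpi (adjusted p = 4.61e-06, edgeR's quasi-likelihood test). DN15483_c3_g7_i1.p1 was called higher at both time points too (1.04 and 1.82), and DN15483_c3_g1_i1.p1 at 24 hpi only, with 0.99 at 18 hpi just short of the limit on the fold change and 1.92 at 24 hpi.

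Between the last 2 time points, 1 of the 171 contigs was called higher at 24 than at 18 hpi, beside 0.0223% of all tested contigs, and 0 were called lower, beside 0.00319%. That contig was DN18159_c1_g3_i3.p1, with 41.8, 33.9 and 24.8 CPM at 24 hpi and 11.7, 13.2 and 9.20 CPM at 18 hpi, a log2 fold change of 1.63 ± 0.244 (adjusted p = 0.0262, edgeR's quasi-likelihood test). At 0 hpi it had 23.0, 12.8 and 19.5 CPM. An unadjusted p under 0.05 was reached by 33 of the 171 contigs, beside 7.02% of all tested contigs. DESeq2 called 4 contigs higher, beside 0.722% of those it gave an adjusted p, and 0 lower, beside 0.185%. With limma-voom 2 were called higher, beside 0.0351%, and 0 lower, beside 0% of all tested. The median log2 fold change of the 171 was 0.33 (0.01 over all tested contigs), and 127 were positive and 44 negative, beside 51.7% positive of all tested contigs. The median was 0.22 without replicate 2 of 24 hpi (0.01 over all tested), and 0.22 with library size as the only scaling (-0.09 over all tested).

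The call of DN18159_c1_g3_i3.p1 was not made with library size as the only scaling, nor with counts summed per Trinity gene, nor without any 1 of the libraries of 18 hpi or replicate 2 of 24 hpi. Its log2 fold change was 0.35 (adjusted p = 0.802) summed per Trinity gene and between 1.5 and 1.77 in the others of these fits. Of the libraries left out 1 at a time, replicate 1 of 24 hpi moved the counts at 24 hpi most: 25 contigs were then called higher (4% of all tested) and 15 lower (6.25%) at 24 against 0 hpi, and 6 higher at 24 against 18 hpi (0.465%). The 24 hpi counts of calls thus rest in part on that library.

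The same rule was applied to the other time points to set the number 171 in the series. A single peak was found for 463 contigs at 0 hpi, 171 contigs at 6 hpi, 0 contigs at 18 hpi and 13 contigs at 24 hpi. A single dip, with the difference and the libraries on the low side, was found for 156 contigs at 0 hpi, 35 contigs at 6 hpi, 4 contigs at 18 hpi and 17 contigs at 24 hpi. Peaks outnumbered dips at 0 and at 6 hpi, and few contigs had 18 or 24 hpi alone apart from the rest. With CPM scaled by TMM factors the peaks numbered 495, 191, 0 and 16 and the dips 132, 32, 5 and 16, in the same order of time points. No test was made on these counts.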

How the data were processed

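Colonies of an isogenic *B. schlosseri* strain were sampled at 0, 6, 18 and 24 hpi, with 3 libraries each. The authors removed ribosomal reads, trimmed with Trimmomatic 0.30, assembled the remainder without a genome in Trinity, selected reading frames with TransDecoder, merged near-identical sequences and quantified with kallisto 0.43.1. They deposited its estimated counts, which are neither normalized nor divided by contig length. All 12 columns were matched to samples, and 0 columns were left over. The authors' own calls were not used, nor was a genome.

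CPM used the column sums and a pseudocount of 1. For the tests, estimated counts were rounded and fitted with edgeR 4.0.16 in R 4.3.3 (quasi-likelihood, robust, TMM factors, filterByExpr, all 12 libraries in 1 fit, no covariate), which tested 31383 contigs including all 171. P-values were adjusted by Benjamini-Hochberg over all tested contigs of a comparison; SE was taken as the size of the log2 fold change over the root of its F statistic. No pair of replicates was a duplicate (chi-square per degree of freedom at least 3.14). Alternatives used DESeq2 1.42.0, limma 3.58.1, other scalings, filters and thresholds, a replicate block, sums per Trinity gene and single libraries left out. Rule and fit were run on simulated counts with seeded changes, as a check of the code. The simulation of the rule held counting error alone, less than the spread between these replicates. It therefore does not measure how often the rule errs in these data. P-values set the difference between time point means against the spread between subclones, estimated over all time points together. Each subclone gave a single library, so that spread cannot be told apart from variation of surgery and library.

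The contigs, the rule and the lists were chosen with earlier results of these data known. Named were the 2 contigs with the largest excess, the 2 highest at 6 hpi, the 2 highest and 2 lowest by mean log2 fold change among those called in 1 direction at both 18 and 24 against 0 hpi, the 2 nearest each side of the limit, and the contigs of the 2 Trinity genes with most selected contigs (ties by mean CPM); others are marked as chosen after their values were seen, and read clusters with at least 4 selected contigs are described as such.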

Additional observations from a re-analysis of the deposited data

How the results depend on the processing

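The number of contigs followed the rule closely: 386 with an excess of at least 1, 78 with at least 2, and 90 with whole estimates only. It was 191 with TMM factors (169 of them among the 171), 184 and 155 with a pseudocount of 0.5 and 2, 200 without limits on mean CPM, and from 163 to 194 with 1 library left out (152 to 169 among the 171). At 18 against 0 hpi, contigs called higher numbered 14 with library size as the only scaling, 6 with limma-voom, and from 9 to 11 with 1 library left out. Contigs called lower there, 26 in the main fit, numbered 20 with limma-voom and from 20 to 29 with 1 library left out. The lowest of these counts was that without replicate 1 of 18 hpi. At 24 against 0 hpi, contigs called higher numbered 9 with limma-voom, and with 1 library left out from 13 to 25, with 15 to 24 called lower. At 24 against 18 hpi, contigs called higher numbered 4 with DESeq2, 2 with limma-voom, 0 with library size only and from 0 to 6 with 1 library left out. Of 147 alternative counts, 132 were within 1.5 times the reported one. Among these 132 are the counts called lower at 24 against 18 hpi, which were 0 in the main fit and in every other fit. The calls of DN13562_c11_g4_i1.p1, DN2086_c0_g1_i1.p1, DN3733_c0_g1_i1.p1 and DN11020_c0_g2_i1.p1 at 18 and 24 against 0 hpi were all lost with limma-voom (adjusted p from 0.0733 to 0.489), with the direction kept. The cause of these differences was not tested. Counts of calls in this section are set against those of the main fit, not against a share of all tested contigs.

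A replicate block gave 9 contigs called higher and 25 lower at 18 against 0 hpi, 16 and 24 at 24 against 0 hpi, and 1 and 0 at 24 against 18 hpi. The samples share only a number: over 18 pairs of libraries with the same number, the correlation of their deviations from the time point means lay between -0.139 and 0.0918. Depth limits the contigs with few counts at 0, 18 and 24 hpi, where intervals cover counting error only, and reads divided between similar contigs limit single contigs of large read clusters.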

Other observations

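Outside the limits on mean CPM, 23 contigs below 5 CPM and 6 contigs at or above 500 CPM met the other conditions of a peak at 6 hpi.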
